A study of Mus musculus with 9 samples.

Results

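Gata2, Gata6, Tal1, Lyl1, Lmo2, Mecom and Hhex were followed through maps of open chromatin of lung endothelial cells at 3 ages. These 7 genes encode transcription factors and cofactors, most of them shared by blood stem cells and endothelium. The members were taken as a named set, 7 of 21887 protein-coding genes in the gene table. Each peak went to the gene that contained the midpoint of the peak, or to the shortest where several did. Failing that, it went to the nearest gene end up to 100 kb away. Once overlapping peaks (1 bp or more) of the 9 libraries had been merged, 134 of 126907 regions belonged to the 7 genes. The groups were 3 infant, 3 young adult and 3 mature adult libraries of mouse lung endothelial cells isolated by fluorescence sorting, with no treatment or altered allele in the labels. The labels give no strain, sex, age in days or animal, so that the p-values cover library-to-library spread alone, which may be technical. ATAC-seq, which uses a transposase to insert adapters into accessible DNA, was deposited as 1 list of peaks per library, each peak with a position and a width and with no height. By its title, the study concerns the passage of endothelial cells from a state of vessel growth to a quiescent state.

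Several of these factors work together at the DNA. Tal1 (also called Scl) and its close relative Lyl1 are basic helix-loop-helix proteins that pair with E proteins on E-box sequences, GATA factors bind GATA sequences, and Lmo2 is a LIM-only adaptor that binds no DNA itself and joins both through Ldb1. Tal1, Lmo2 and a GATA factor together set up blood and endothelium in the mouse embryo. Mecom (Evi1) is a zinc finger factor of blood stem cells and of some endothelium, Hhex is a homeobox factor of early endothelial and blood progenitors, and Gata6 is the GATA factor best known from heart, endoderm and lung epithelium.

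The promoter windows below carry the first part of the comparison, because they show at which listed start an endothelial peak lay. Each runs from 250 bases before to 50 bases after a start site, in the direction of transcription, as listed by RefSeq for GRCm38.p6 (mm10). The table matched 5 of the 7 genes, with 8 windows. Capitals mark matches to AGATAA (the GATA sequence), CAGATG and CAGCTG (E-boxes) or CCGGAA (the ETS sequence), searched on both strands. Among these 4 strings CAGCTG is its own reverse complement and none of the matches in the 8 windows overlapped. The first 3 windows had a peak in all 9 libraries, the Tal1 window had one in 5 of 9, and the last, the upstream start of Mecom, had none.
Gata2, second start, chr6:88198414-88198713, + strand: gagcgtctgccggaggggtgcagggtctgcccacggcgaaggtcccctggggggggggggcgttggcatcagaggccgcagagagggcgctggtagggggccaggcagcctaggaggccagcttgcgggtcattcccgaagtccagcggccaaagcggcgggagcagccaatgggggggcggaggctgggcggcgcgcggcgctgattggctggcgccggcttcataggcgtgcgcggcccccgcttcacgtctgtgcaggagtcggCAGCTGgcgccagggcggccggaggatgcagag
Lyl1, chr8:84701207-84701506, + strand: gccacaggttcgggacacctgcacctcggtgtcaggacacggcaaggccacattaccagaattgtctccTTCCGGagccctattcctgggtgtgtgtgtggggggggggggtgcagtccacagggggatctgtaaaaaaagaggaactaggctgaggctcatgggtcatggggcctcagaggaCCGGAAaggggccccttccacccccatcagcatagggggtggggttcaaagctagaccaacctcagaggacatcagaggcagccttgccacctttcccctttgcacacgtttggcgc
Mecom, second start, chr3:30013155-30013454, - strand: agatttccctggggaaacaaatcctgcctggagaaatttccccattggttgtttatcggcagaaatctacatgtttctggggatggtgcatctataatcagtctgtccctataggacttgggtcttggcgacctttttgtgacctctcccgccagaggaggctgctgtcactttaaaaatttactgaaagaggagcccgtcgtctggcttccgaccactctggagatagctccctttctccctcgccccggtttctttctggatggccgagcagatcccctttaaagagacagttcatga
Tal1, first start, chr4:115056176-115056475, + strand: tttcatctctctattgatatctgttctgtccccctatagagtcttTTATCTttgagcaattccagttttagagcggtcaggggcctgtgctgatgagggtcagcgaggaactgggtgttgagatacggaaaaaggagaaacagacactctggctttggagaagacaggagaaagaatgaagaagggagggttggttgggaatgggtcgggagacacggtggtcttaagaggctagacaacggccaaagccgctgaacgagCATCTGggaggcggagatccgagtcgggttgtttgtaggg
Mecom, first start, chr3:30509710-30510009, - strand: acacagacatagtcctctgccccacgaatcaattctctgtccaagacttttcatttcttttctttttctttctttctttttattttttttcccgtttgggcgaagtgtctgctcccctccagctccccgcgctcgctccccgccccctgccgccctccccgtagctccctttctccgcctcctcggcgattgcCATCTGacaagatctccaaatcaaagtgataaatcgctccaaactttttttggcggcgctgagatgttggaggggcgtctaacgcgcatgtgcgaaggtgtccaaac

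A string match is a description of these letters and not of a bound factor. The Lyl1 window held CCGGAA at 181 and at 67 bp before the start site, a string found in 14.9% of all 32851 promoter windows of the table. The Tal1 window held the reverse complement of AGATAA 205 bp before the start, a string found in 11.2% of all windows, and the reverse complement of CAGATG 10 bp after it, found in 17.2%. The merged regions overlapped only the last 199 bp of the Lyl1 window and the last 51 bp of the Tal1 window. The Lyl1 match at 181 bp before the start and the Tal1 match to AGATAA therefore lay outside any peak. The second Gata2 window held CAGCTG 17 bp after the start, against 16.3% of all windows. The first Mecom window held the reverse complement of CAGATG 57 bp before the start. The remaining windows, the second start of Mecom and of Tal1, the first of Gata2 and the only listed start of Hhex, held none of the strings. The Hhex window had a peak in all 9 libraries, and the first Gata2 window in none. Of all 32851 windows, 36.8% had a peak in all 9 libraries and 52.4% in none.

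The lists were shorter in adults, which sets the background for every count. Young adult lists held 67850, 68366 and 67550 peaks and mature adult lists 59793, 64208 and 63105, against 94646, 90043 and 88856 in the infant libraries. Depth is unknown, so the absence of a peak does not show closed chromatin. The number of peaks per gene was therefore tested with limma in 2 ways, scaled to the library total and as listed, over the 14510 genes that averaged 1 peak or more, and a gene counted as changed where both gave an adjusted p under 0.05 with 1 direction. The median log2 change of all these genes between mature adult and infant libraries was 0.14 scaled and -0.31 as listed, and between young adult and infant libraries 0.13 and -0.25. The cells carried peaks at endothelial genes at every age. Summed over Pecam1, Cdh5, Kdr, Tek, Cldn5 and Egfl7 there were 147 to 154 peaks in infant, 124 to 138 in young adult and 118 to 138 in mature adult libraries. None of these genes was called on both scales. Gata1, the erythroid GATA factor, and the haemoglobin genes Hba-a1 and Hbb-bs had no peak in any library. Other erythroid and megakaryocyte genes did have peaks, Klf1 with 1 in each library, Epor with 1 to 3 and Itga2b with 3 to 6. Pf4 had 1 peak in each infant and young adult library, Gp9 had 1 to 2 in infant libraries alone. Summed over 7 leukocyte genes there were 19 to 20 peaks in infant, 14 to 26 in young adult and 14 to 15 in mature adult libraries. Summed over 8 fibroblast and mural genes there were 75 to 79, 32 to 38 and 30 to 31 at the same ages, so that these markers moved with age as Mecom did, and their part in the results below was not tested. In bulk libraries, fewer cells of a type and fewer openings per cell cannot be told apart. Of the fibroblast and mural list 5 genes fell in young adult and 4 in mature adult libraries, beside 9.25% and 13.9% of all genes tested. Myh11, the smooth muscle myosin, rose in mature adults, where 1.42% of genes rose. It had 7 peaks in each infant and 8 in each mature adult library, and numbers equal within an age leave little spread. The sums of 8 erythroid and megakaryocyte, 5 epithelial and 5 lymphatic genes lay between 5 and 11, 7 and 21 and 17 and 27 peaks per library, lowest in adults, with Sftpc and Pdpn at 0 in all libraries and Prox1 lower in young adults. Replicate 3 of the young adults and replicate 1 of the mature adults differed from the other adult libraries in the series, with many regions of their own. Several results that change without either of them are given with that value. Ranges of the region counts with a library left out are given with the alternatives below.

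Mecom had fewer peaks after infancy on both scales, and no other member changed on both. Mecom had 62, 52 and 54 peaks in infant, 27, 28 and 27 in young adult and 21, 18 and 19 in mature adult libraries. No young adult or mature adult library came near the infant numbers, and every mature adult library lay below every young adult one. The means were 56.0 ± 5.29, 27.3 ± 0.577 and 19.3 ± 1.53 at the 3 ages (SD, n = 3 each). Scaled to the library total, the means were 45.3, 29.7 and 22.95, a smaller fall. Between young adult and infant libraries Mecom fell by 0.60 ± 0.08 (log2, SE) on the scaled numbers (limma adjusted p = 0.000961) and fell by 1.02 ± 0.08 as listed (limma adjusted p = 0.00025). Between mature adult and infant libraries it fell by 0.97 ± 0.08 scaled (limma adjusted p = 0.000121) and fell by 1.51 ± 0.08 as listed (limma adjusted p = 2.2e-05). Between the 2 adult ages the log2 change of -0.37 scaled and -0.49 as listed did not pass (limma adjusted p = 0.162 and 0.0598). Thus 1 of 7 members fell in each comparison with infants, where 9.25% of all genes tested fell in young adult and 13.9% in mature adult libraries, and 0 of 7 rose in limma, also at an unadjusted p under 0.05, where 1.10% and 1.42% of genes rose. Against infants 2 members were lower on both scales at an unadjusted p under 0.05 in young adults, and 2 in mature adults. Between mature and young adult libraries limma called 0 of 7 members, where 0.669% of genes fell and 0.103% rose. At an unadjusted p under 0.05 on both scales 1 member was lower there and 0 were higher, and as listed Mecom and Lmo2 had an unadjusted p of 0.00061 and 0.0457. With both libraries that stood apart left out, the Mecom call held, with log2 changes as listed of -1.01 in young adults and -1.57 in mature adults (limma adjusted p at most 0.00281).

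**Figure D1:**
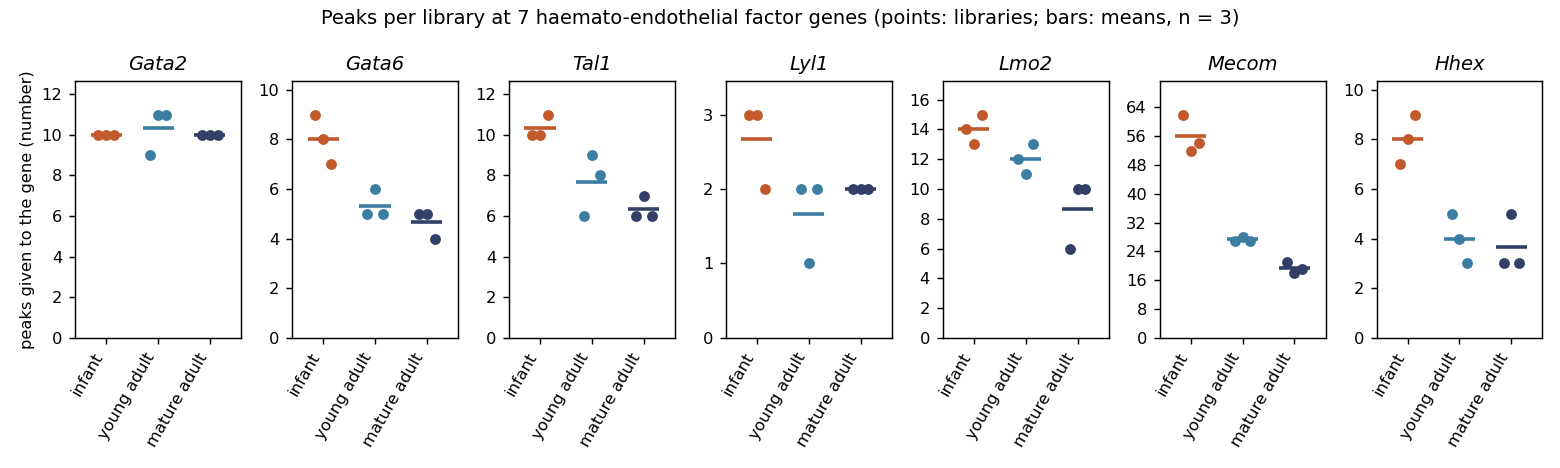
Number of peaks given to each of the 7 genes (vertical axis, a separate range per gene) in each library of the 3 ages; points are libraries and bars are means of 3. Mecom stands at 52 to 62 peaks in infant, 27 to 28 in young adult and 18 to 21 in mature adult libraries, while Gata2 stays between 9 and 11.

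The length of DNA covered at Mecom went the same way. Its peaks covered 34.3, 30.0 and 28.0 kb in infant, 14.2, 15.4 and 11.9 kb in young adult and 9.61, 9.74 and 9.74 kb in mature adult libraries. Groups did not overlap, and the 3 mature adult libraries were nearly alike. The mean width of a Mecom peak was 549 ± 30.0 bp in infant, 505 ± 57.6 bp in young adult and 504 ± 42.5 bp in mature adult libraries (SD, n = 3 each), ranges that overlapped. Most Mecom peaks lay inside the gene, which spans 558.5 kb on chr3:29951296-30509759. Inside it there were 50, 42 and 45 peaks in infant, 25, 24 and 24 in young adult and 19, 17 and 16 in mature adult libraries. Outside it there were 12, 10 and 9, then 2, 4 and 3, then 2, 1 and 3 at the same ages. Mecom is by far the longest of the 7 genes, the others spanning 3.29 kb (Lyl1) to 33.1 kb (Gata6), so its numbers are not set against theirs. By its profile over the 9 libraries (Euclidean distance of centred log2 numbers, among 3801 genes with a mean of at least 5 peaks) the genes most like Mecom were Cdh4 at a distance of 0.32, Tmsb10 at 0.34 and Tshz2 at 0.35, against a median distance of 1.51. Cdh4, which encodes R-cadherin, had 15, 12 and 15 peaks in infant, 7, 6 and 7 in young adult and 5, 4 and 5 in mature adult libraries.

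Along Mecom, the body of the gene held regions with peaks in infant libraries alone and regions with peaks at every age, the internal start among them. The gene has 2 listed starts on the - strand, a distal one whose long protein carries an added PR domain and an internal one for the shorter Evi1 form. The region over the internal start, chr3:30012170-30013461, was open in all libraries, with 1254, 1048 and 948 bp of peak in infant, 1101, 1151 and 929 bp in young adult and 669, 881 and 1046 bp in mature adult libraries. The ages overlapped there. The window of the distal start printed above held no peak, but the widest shared region of the gene lay just inside it, at chr3:30507000-30509466, with 2349, 1933 and 1947 bp in infant, 1797, 1817 and 1416 bp in young adult and 1682, 1668 and 1797 bp in mature adult libraries. Of the 73 merged Mecom regions, 67 were open in at least 1 infant library, 32 in at least 1 young adult library and 25 in at least 1 mature adult library. All 3 libraries of an age shared 42 regions in infants, 19 in young adults and 14 in mature adults, and those 14 were open in all 9 libraries.

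Mecom regions open in every infant library and in no adult library numbered 14, of which 11 lay inside the gene and 3 outside. None of the adult libraries had a peak at the 4 widest of these. The widest was chr3:29874025-29874995, 76786 bp beyond the gene's lower end, with 970, 362 and 509 bp in the infant libraries. Inside the gene, chr3:30176412-30177217 had 690, 785 and 770 bp, chr3:30254417-30255149 had 732, 530 and 305 bp, and chr3:30418202-30418907, 91.2 kb downstream of the distal start, had 566, 534 and 583 bp. In 6 further regions all infant libraries and at least 1 young adult library, but no mature adult library, had a peak. In chr3:30460653-30461302, 48.8 kb downstream of the distal start, the width was 556, 417 and 549 bp in infant and 263, 277 and 274 bp in young adult libraries, and no mature adult library had a peak. In chr3:30244365-30244993 it was 613, 592 and 576 bp in infant libraries, 295 and 339 bp in young adult replicates 1 and 2, and 0 in replicate 3. At chr3:30076397-30077212, with 621, 757 and 813 bp in infant libraries, only young adult replicate 1 kept a peak, of 150 bp. At chr3:30546439-30547472, 37196 bp upstream of the distal start, the infant libraries had 1006, 610 and 374 bp and young adult replicate 2 had 606 bp. No Mecom region belonged to all 6 adult libraries while being absent from infants.

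**Figure D2:**
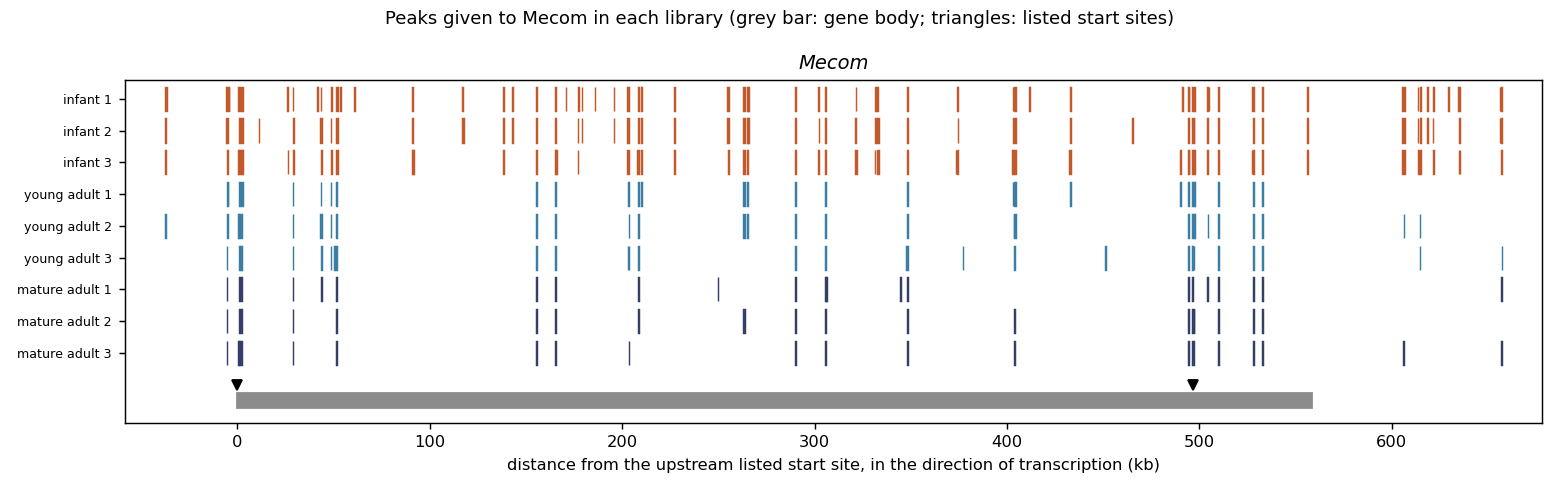
Peaks given to Mecom in each of the 9 libraries (rows), by distance from the distal listed start site in the direction of transcription (kb). Inside the gene 42 to 50 peaks stand in an infant row, 24 to 25 in a young adult row and 16 to 19 in a mature adult row, while 14 regions, among them those at the internal start and just inside the distal start, recur in all 9 rows.

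Gata2 had nearly the same openings at every age. It had 10 peaks in each infant library, 9, 11 and 11 in the young adult libraries and 10 in each mature adult library. They covered 6.07, 5.99 and 5.79 kb in infant, 6.22, 6.20 and 5.97 kb in young adult and 5.61, 5.88 and 6.06 kb in mature adult libraries, ranges that overlapped. As listed its log2 change was 0.00 between mature adult and infant libraries (limma adjusted p = 1). The lists were shorter in adults, and the share of peaks at Gata2 was higher there, by 0.52 in mature adults (limma adjusted p = 0.0017) and by 0.44 in young adults (limma adjusted p = 0.00459), where 30.4% and 26.1% of all genes tested were also higher on that scale. Without young adult replicate 1, which had 9 peaks, Gata2 was called higher in young adults on both scales (limma adjusted p at most 0.00429).

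Of 11 Gata2 regions 8 were open in all libraries. The gene, chr6:88193891-88207032, has 2 listed starts, and a peak covered the window of the second in every library and of the first in none. The region over the second start, chr6:88197937-88198976, measured 1039, 988 and 870 bp in infant, 946, 896 and 866 bp in young adult and 871, 897 and 878 bp in mature adult libraries. Chr6:88202864-88203640, centred 9.36 kb downstream of the first start, where an intronic enhancer of Gata2 in mouse blood stem cells and endothelium is known, had 776, 729 and 724 bp in infant, 701, 684 and 675 bp in young adult and 650, 647 and 662 bp in mature adult libraries. The widest, chr6:88189281-88191225, 3638 bp upstream of the first start, had 1549, 1449 and 1526 bp in infant, 1913, 1751 and 1489 bp in young adult and 1441, 1594 and 1688 bp in mature adult libraries. The other 3 lay upstream, 1 of them in young adult replicate 3 alone. Chr6:88161951-88162346, 31743 bp upstream of the first start, had no peak in any infant library, 310, 254 and 300 bp in young adult and 236, 347 and 355 bp in mature adult libraries. It was the single member region, 1 of 134, open in all 6 adults and absent from infants, a class that held 0.686% of all regions. Without mature adult replicate 1 the class held 2 member regions, the other being a small one inside Lmo2. Chr6:88174175-88174535, 19536 bp upstream, had 223, 352 and 335 bp in infant libraries, 175 bp in young adult replicate 2 and no peak in any mature adult library.

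Gata6 and Hhex kept their start or gene-end regions in adults and were not called on both scales. Gata6 had 9, 8 and 7 peaks in infant, 5, 6 and 5 in young adult and 5, 5 and 4 in mature adult libraries. Every adult library lay below every infant one. Its log2 change between mature adult and infant libraries was -0.72 as listed (limma adjusted p = 0.00707) and -0.21 scaled (limma adjusted p = 0.201), so it was not called on both scales. Inside Gata6 there were 2, 3 and 2 peaks in infant, 2, 3 and 2 in young adult and 2, 2 and 1 in mature adult libraries, and outside it 3 in each adult library, against 7, 5 and 5 in infant libraries. The region over the gene's lower end (chr18:11051875-11053837; gene chr18:11052510-11085636) had 1583, 1608 and 1504 bp in infant, 1335, 1328 and 1337 bp in young adult and 1401, 1352 and 1441 bp in mature adult libraries. Above the gene 2 regions had no peak in any adult library. In infant libraries chr18:11096728-11097208 had 480, 430 and 401 bp, and chr18:11111279-11111739 had 429, 426 and 460 bp. On either side of this pair stood regions open in all 9 libraries, the widest chr18:11128796-11130092, 43808 bp from the gene's upper end, with 1146, 1101 and 1133 bp in infant, 1017, 1030 and 1206 bp in young adult and 1029, 1040 and 1041 bp in mature adult libraries. Inside the gene, chr18:11077854-11078574 had 590, 609 and 446 bp in infant libraries, 197 bp in young adult replicate 1 and no peak in the other adult libraries.

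Hhex had 7, 8 and 9 peaks in infant, 5, 4 and 3 in young adult and 3, 5 and 3 in mature adult libraries. Infant and adult numbers did not overlap. The log2 change between mature adult and infant libraries was -1.06 as listed (limma adjusted p = 0.0186) and -0.56 scaled (limma adjusted p = 0.0895), and between young adult and infant libraries -0.94 (limma adjusted p = 0.042) and -0.54 (limma adjusted p = 0.109). Without mature adult replicate 2, Hhex was called lower in mature adults on both scales (limma adjusted p at most 0.0299). The region over its start, chr19:37434366-37436242, covered 1876, 1768 and 1673 bp in infant, 1681, 1711 and 1524 bp in young adult and 1647, 1522 and 1643 bp in mature adult libraries. A small region beside it inside the gene, chr19:37436453-37436652, had no peak in any adult library and 150, 156 and 199 bp in the infant libraries. Downstream of the gene 2 more regions had no peak in any adult library. Chr19:37470442-37471009, 35.9 kb from the start, had 389, 419 and 548 bp in infant libraries, and chr19:37480425-37480805, 45.8 kb from it, had 356, 337 and 380 bp. Chr19:37471312-37471964 had 400, 632 and 435 bp in infant libraries, 245 bp in young adult replicate 1 and no other adult peak. Next to the region at 45.8 kb lay one open at every age, chr19:37481600-37482186, with 568, 557 and 542 bp in infant, 586, 568 and 521 bp in young adult and 551, 540 and 537 bp in mature adult libraries.

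Tal1, Lyl1 and Lmo2, whose proteins can share a complex, had their widest regions open at every age, and none of the 3 was called on both scales. Tal1 had 10, 10 and 11 peaks in infant, 6, 9 and 8 in young adult and 6, 7 and 6 in mature adult libraries. No adult library reached the lowest infant number. Its log2 change between mature adult and infant libraries was -0.67 as listed (limma adjusted p = 0.0156) and -0.15 scaled (limma adjusted p = 0.429). The region over its first start, chr4:115056425-115057610, had 1153, 951 and 945 bp in infant, 1114, 1136 and 973 bp in young adult and 1073, 965 and 1121 bp in mature adult libraries. A peak touched the first Tal1 window printed above in all 3 infant libraries and in young adult replicates 1 and 2, at its very end, and touched the window of the second start in every library except mature adult replicate 1. Chr4:115074886-115076068, centred 19.0 kb downstream of the first start, where the stem cell enhancer of Tal1 in mouse blood and endothelium is known, was open in all 9 libraries, with 793, 681 and 767 bp in infant, 792, 749 and 1045 bp in young adult and 752, 792 and 1160 bp in mature adult libraries. Chr4:115049697-115050206, 6475 bp upstream, had no peak in any adult library and 455, 433 and 509 bp in infant libraries. Chr4:115071746-115072036, 136 bp beyond the gene, had 290, 239 and 166 bp in infant libraries and 226 bp in young adult replicate 2, with no peak in the other adult libraries.

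Lyl1 had 3, 3 and 2 peaks in infant, 2, 1 and 2 in young adult and 2 in each mature adult library, numbers that overlapped and did not pass on either scale in any comparison. All of these lay inside the gene. Each library had 20 to 27 peaks in Lyl1 or within 50 kb of it, the rest of which were not given to Lyl1. Its start region, chr8:84701308-84701913, was open in all libraries, with 488, 431 and 429 bp in infant, 587, 551 and 424 bp in young adult and 420, 439 and 430 bp in mature adult libraries. Chr8:84703915-84704193 inside the gene had peaks in infant replicates 1 and 2 alone, of 262 and 215 bp. A further peak of 414 to 519 bp lay over the gene's far end in 8 libraries, and infant replicate 3 had one of 213 bp that ended just inside it. By its centre the one in young adult replicate 2 and the merged region were given to the overlapping gene Nfix, so that this end does not count among the Lyl1 regions.

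Lmo2 had 14, 13 and 15 peaks in infant, 12, 11 and 13 in young adult and 6, 10 and 10 in mature adult libraries. Young adult and infant numbers met at 13, and mature adult numbers lay below both. The log2 change between mature adult and infant libraries was -0.69 as listed (limma adjusted p = 0.0368) and -0.17 scaled (limma adjusted p = 0.464). The lowest number came from mature adult replicate 1. That library alone lacked a peak at chr2:103930313-103931182, 27156 bp below the gene (chr2:103957903-103981878), where the other libraries had 667 to 852 bp. The widest region, chr2:103968798-103970974 inside the gene, had 1624, 1628 and 1949 bp in infant, 1963, 1898 and 1507 bp in young adult and 1449, 1798 and 2146 bp in mature adult libraries. No adult library had a peak at 2 other places. Chr2:103884541-103885341, 72962 bp below the gene, had 800, 693 and 606 bp in infant libraries and chr2:103971791-103972023 inside the gene had 183, 232 and 203 bp. Chr2:103935887-103936435, 21742 bp below the gene, had 531, 463 and 478 bp in infant libraries, 232 and 203 bp in young adult replicates 2 and 3 and no mature adult peak. Beside the widest region a small one, chr2:103968361-103968585, was open in no infant library, in all young adult libraries with 210, 150 and 155 bp and in mature adult replicates 2 and 3 with 154 and 172 bp.

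**Figure D3:**
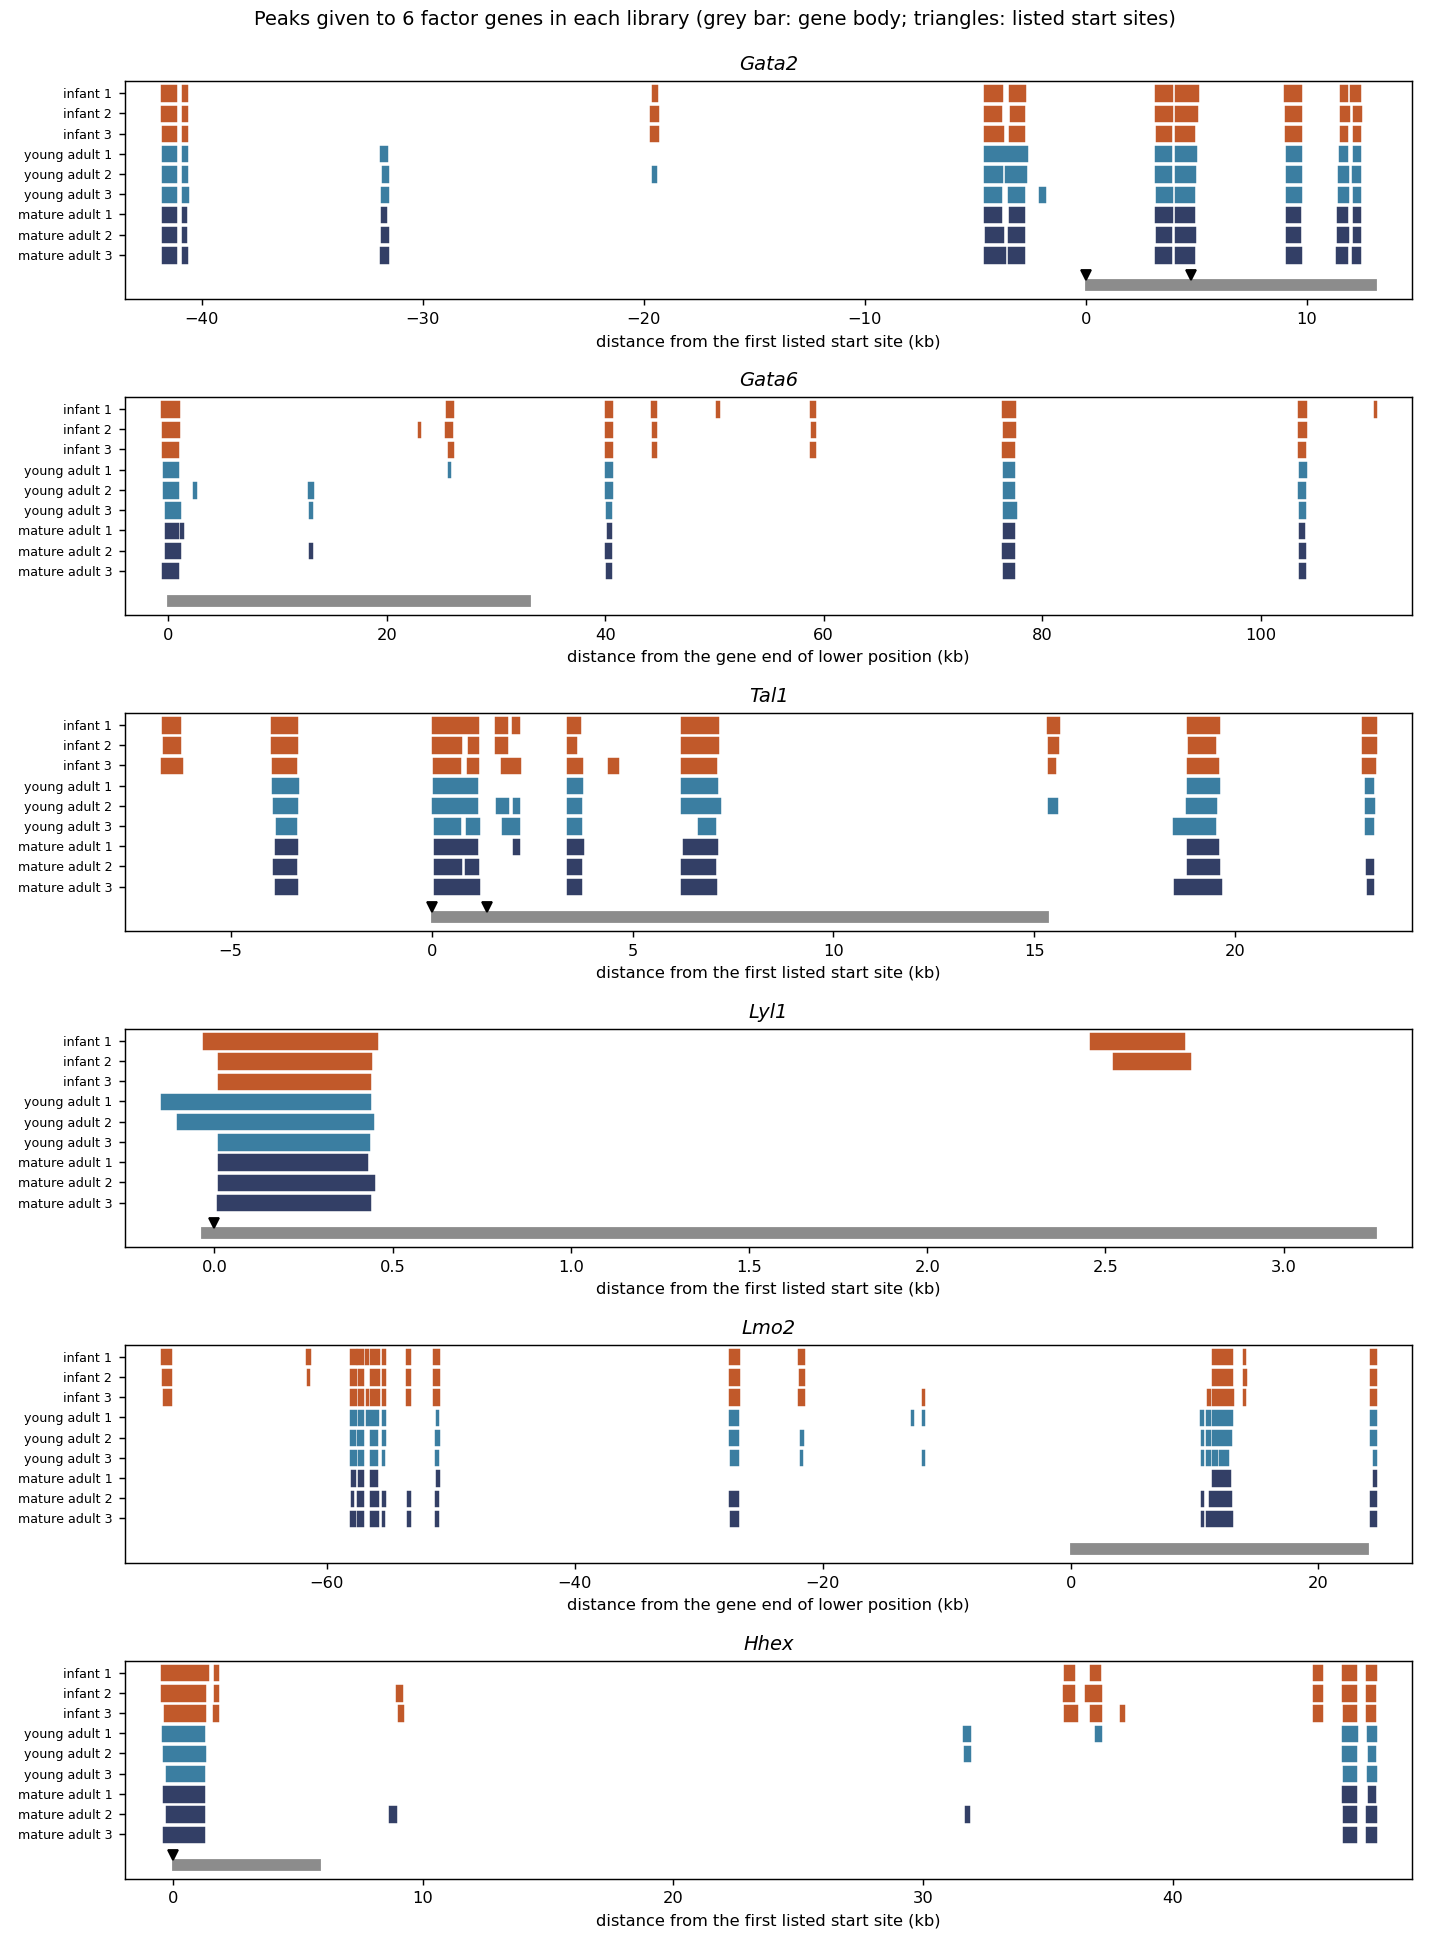
Peaks given to the 6 shorter genes in each of the 9 libraries (rows), by distance (kb) from the first listed start site, or for Gata6 and Lmo2 from the gene end of lower position. The merged start or gene-end regions of Gata6, Tal1, Lyl1 and Hhex and 8 of 11 Gata2 regions have peaks in every row. The peaks of that Tal1 region reach the window of the first start in 5 of 9 rows. Regions such as those of Hhex at 35.9 and 45.8 kb stand in the infant rows alone. The peak over the far end of Lyl1 is not drawn.

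Peak numbers of young adult and infant libraries did not overlap, with the adults lower, at 4 of 7 members (Gata6, Tal1, Mecom and Hhex), where 27.3% of all genes tested had that pattern. For mature adult against infant libraries it was 5 of 7, with Lmo2 added, beside 35.5% of all genes, and for mature against young adult libraries 2 of 7 (Lmo2 and Mecom), beside 4.39%. On the numbers as listed alone 3 members were lower in young adults and 5 in mature adults, beside 17.4% and 29.3% of genes. The members' median log2 change between mature adult and infant libraries was -0.17 scaled and -0.69 as listed, against 0.14 and -0.31 over all genes tested. Regions found in a single library made up 29 of the 134 member regions (21.6%, against 24.4% of all regions), between 0 and 4 in each adult library and 12, 3 and 5 in the infant libraries.

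Most of the member regions with peaks in every infant and no adult library belonged to Mecom, which held 73 of the 134 member regions. Of the 134 member regions 41 (30.6%) were open in all 9 libraries, against 32.4% of all regions. Those open in every infant and in no adult library numbered 22 (16.4%, against 9.70% of all regions), and those open in every infant and in no mature adult library 33 (24.6%, against 14.4%). Mecom supplied 14 of the 22 and 20 of the 33, shares of 19.2% and 27.4% of its 73 regions. Over the other 6 genes the shares were 13.1% and 21.3% of 61 regions. At Hhex 3 of 10 regions and at Gata6 2 of 12 belonged to the infant class, and at Gata2 and Lyl1 none did. Of the 11 member regions centred within 1 kb of a start or gene end, too few to read a share from, none was of the infant class, 1 was open in all infant and no mature adult library (Tal1) and 8 were open in all 9. Of the 22 infant regions 13 lay inside a member gene and 9 outside. Their merged widths ran from 199 to 970 bp with a median of 490.5 bp, against 269 to 2466 bp with a median of 713 bp for the 41 shared ones, which join peaks of 9 libraries in place of 3, so that the widths are not like for like.

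**Figure D4:**
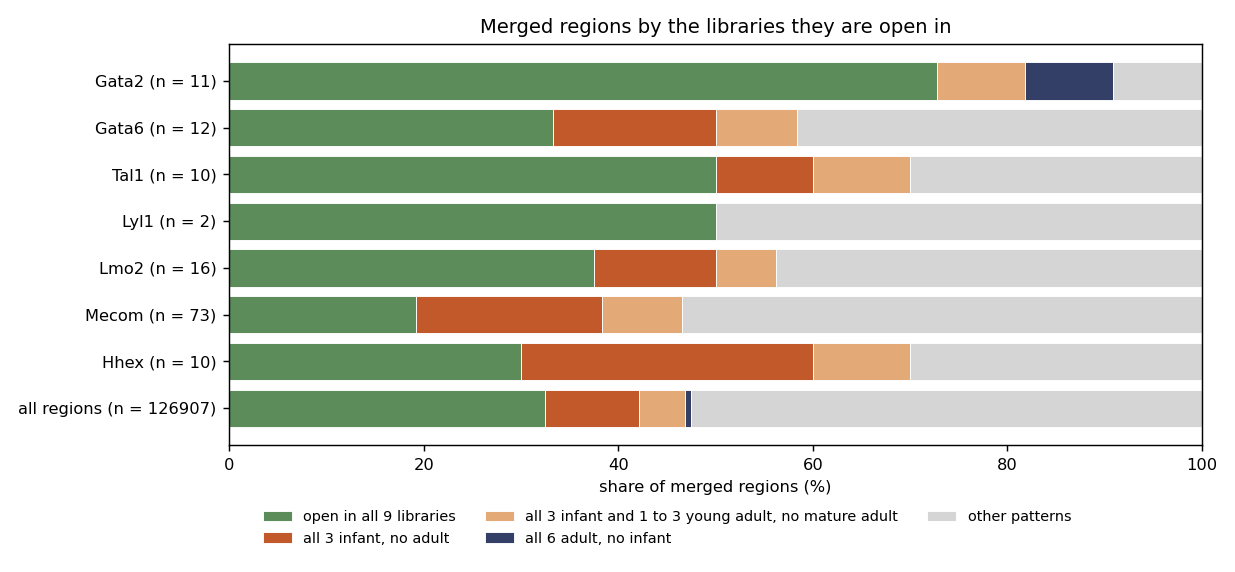
Share (%) of the merged regions of each gene, and of all 126907 regions, by the libraries they were open in. The class of all 3 infant and no adult libraries makes up 30.0% of the Hhex and 19.2% of the Mecom regions against 9.70% of all regions, and Gata2 holds 72.7% in regions open in all 9 libraries.

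Peaks of a shared region overlap by the way regions were merged, so their centres can differ little. In 33 of the 41 each library had exactly 1 peak, and the mean centre differed between mature adult and infant libraries by a median of 19.5 bp and at most 90.8 bp, beside a median SD within an age of 19.0 bp. At chr3:30353833-30354769 in Mecom the centre differed by 80.2 bp, beside a mean SD within an age of 12.3 bp. Their width was tested with limma over all 41144 regions open in 9 libraries, centred on each library's median, because shared regions were narrower in adults in general, by a median log2 change of -0.19 between mature adult and infant libraries. Of the 41 member regions 4 were narrower and 4 wider in mature adult libraries, where 6.83% and 14.0% of all shared regions were. Between young adult and infant libraries limma called 0 narrower and 1 wider, where 2.10% and 3.10% of shared regions were, and at an unadjusted p under 0.05 it was 3 and 6. Between the adult ages limma called 0 in either direction, where 0.102% were narrower and 0.0243% wider, and at an unadjusted p under 0.05 4 were narrower and 0 wider. These counts moved with single libraries. Without any 1 infant library 2 were narrower in mature adults, without young adult replicate 3 there were 2 narrower between the adult ages, and without mature adult replicate 1 there was 1 narrower in young adults. The wider count in mature adults was 1 without infant replicate 1 or 3 or mature adult replicate 1 or 3, and 2 without infant replicate 2, and the wider count in young adults was 0 without infant replicate 1 or 2.

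Narrowing was strongest 5227 bp upstream of the distal Mecom start. Chr3:30514401-30515572 had 1144, 1147 and 922 bp in infant, 608, 952 and 334 bp in young adult and 254, 231 and 199 bp in mature adult libraries. Its log2 width fell by 1.96 ± 0.30 (SE) in mature adults against infants after centring (limma adjusted p = 0.00597) and fell by 2.23 as listed (limma adjusted p = 0.00601). Chr3:30457633-30458694, 51.6 kb downstream of that start, had 1003, 991 and 940 bp in infant, 810, 795 and 587 bp in young adult and 444, 455 and 490 bp in mature adult libraries, and fell by 0.80 ± 0.10 (limma adjusted p = 0.00266). Mature adult and infant widths overlapped in neither. The other 2 were chr3:30219136-30220072 in Mecom, which fell by 0.81 ± 0.18 (limma adjusted p = 0.0207), and chr2:103906481-103906957 below Lmo2, which fell by 0.70 ± 0.18 (limma adjusted p = 0.0315). At the Lmo2 region the widths were 452, 439 and 476 bp in infant, 200, 284 and 267 bp in young adult and 248, 215 and 235 bp in mature adult libraries. Both calls were lost without any 1 infant library (limma adjusted p 0.0515 to 0.0843), the Lmo2 call also without mature adult replicate 2 or 3 (0.0742 and 0.0703), and all 4 were narrower as listed too. The 4 wider calls (Gata2 at 3638 bp upstream and at chr6:88205230-88205828, the Tal1 start region and chr3:29976509-29977109 in Mecom) depended on the centring, with log2 changes as listed of 0.05 to 0.40 that did not pass.

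**Figure D5:**
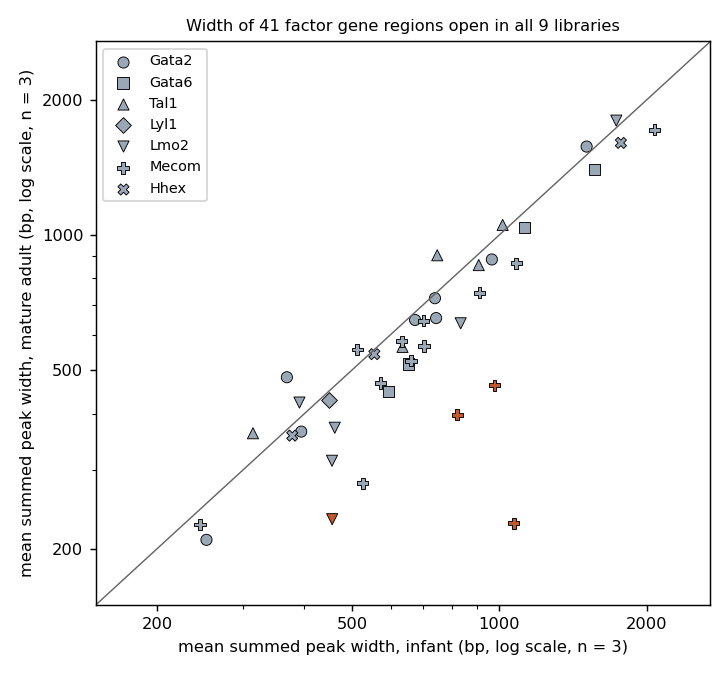
Mean summed peak width in mature adult (vertical) against infant libraries (horizontal), both in bp on log axes and over 3 libraries, for the 41 member regions open in all 9; the line marks equal width and filled orange symbols mark the 4 regions narrower both after centring and as listed. Mecom's region upstream of its distal start lies lowest under the line, at 199 to 254 bp in mature adult and 922 to 1147 bp in infant libraries.

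Among 27 partners and relatives of these factors, 24 had enough peaks for the test. In mature adult against infant libraries 9 of 24 fell (Gata4, Gata5, Runx1, Ldb1, Tal2, Lmo1, Prdm16, Gfi1 and Fli1) and 0 rose, where 13.9% of all genes tested fell. In young adult against infant libraries 5 fell (Gata5, Ldb1, Tal2, Prdm16 and Fli1) and 0 rose, where 9.25% of all genes fell. The list was chosen with earlier results of these data known. At an unadjusted p under 0.05 limma also gave 0 higher, and between the adult ages 0 were called in either direction, with 3 lower and 0 higher unadjusted. The list's median log2 change in mature adults was -0.24 scaled and -0.74 as listed, against 0.14 and -0.31 over all genes. Prdm16, the closest relative of Mecom, had 25, 20 and 17 peaks in infant, 8, 10 and 8 in young adult and 8, 6 and 6 in mature adult libraries (limma adjusted p = 0.00212 for mature adults against infants, scaled). Ldb1, which links Lmo2 to the complex, had 2 in each adult library and 5, 4 and 5 in infant libraries (limma adjusted p = 0.00111). Fli1, an ETS factor of endothelium and blood, had 37, 34 and 30 in infant, 18, 22 and 20 in young adult and 17, 18 and 18 in mature adult libraries (limma adjusted p = 0.0075). Of the other GATA genes, Gata5 had 6, 7 and 6 in infant, 3, 2 and 2 in young adult and 1 in each mature adult library (limma adjusted p = 0.000121), and Gata3 had 9, 10 and 9, then 7, 8 and 6, then 7, 7 and 6. Runx1, the factor of blood emergence from endothelium, had 8, 6 and 9 in infant, 7, 4 and 6 in young adult and 3 in each mature adult library (limma adjusted p = 0.0301). Erg, another ETS factor of endothelium, had 36, 32 and 28 in infant, 29, 27 and 30 in young adult and 22, 28 and 25 in mature adult libraries and was not called. The target list held 13 genes known as targets of these factors in endothelium or blood, among them Kit, Cd34, Emcn, Vwf and Edn1. Limma called 0 of them on both scales in any comparison, also at an unadjusted p under 0.05. In mature adults against infants 7 were higher on the scaled numbers and 3 lower as listed, beside 30.4% and 29.3% of all genes. Their median log2 change in mature adults was 0.30 scaled and -0.24 as listed. Kit, the stem cell factor receptor, had 31, 32 and 30 peaks in infant, 28, 26 and 19 in young adult and 18, 22 and 26 in mature adult libraries, and Cd34 had 16 to 19 peaks in each library.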

How the data were processed

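The 9 peak lists (3 per age, grouped by the library titles) were used as they stand. Each deposited table holds, per the file headers, only chromosome, start and end, without a height, score or read count. The submitters' processing notes name cutadapt, Bowtie2, Picard and the build mm10, and no versions. How peaks were called, at which threshold and whether reads were shifted is not given in the sources used here. Since depth is unknown, no counting interval is given. Starts may count from 0 or 1, so positions can be off by 1 bp. Repeated intervals were used once.

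Genes, starts and promoter sequences came from RefSeq tables of GRCm38.p6. Numbers per gene were fitted as log2(number + 0.5), and widths as log2 summed bp per region, with limma 3.58.1 (trend) in R 4.3.3 over all 9 libraries, with Benjamini-Hochberg adjustment over all genes or regions and a threshold of 0.05. Scaled numbers were multiplied to an equal library total. The fits were tested on simulated data. Python 3.11.15 with pandas 2.3.3 and matplotlib 3.10.9 did the rest. The members and lists were chosen with earlier results of these data known. All 7 members were described. Named regions are those over a start or gene end, the widest open in all libraries, up to 4 of each age class per gene, and those called by width. A few others were named after their values were seen, as were the partner and target genes given with values. The 3 genes most like Mecom were taken by profile distance. Alternatives changed the scale, the added number, the filter, the assignment, repeats, an equal number of widest peaks, covered length, the replicate block and each left-out library.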

Additional observations from a re-analysis of the deposited data

How the results depend on the processing

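Mecom was called lower in young adults and in mature adults under all 22 alternatives, with log2 changes of -1.15 to -0.71 and -1.65 to -1.02 and limma adjusted p of at most 0.00986 and 0.00254. Members called higher in young adults numbered 1 on the scaled numbers alone and 0 to 1 with a library left out (against 0), and in mature adults 1 on the scaled numbers alone. Members called lower in young adults numbered 3 as listed and 2 with peaks within 10 kb of a gene (against 1). Members called lower in mature adults numbered 5 as listed, 2 with an equal number of widest peaks and 1 to 2 with a library left out (against 1). Lyl1 has no value with a mean of at least 3 peaks, because it was then not tested. Regions open in all libraries numbered 63 with all regions within 50 kb, and 41 to 45 with a library left out (against 41). Regions open in all infant and no adult library ranged from 15 to 31, and from 22 to 31 with a library left out (against 22). Those open in all infant and no mature adult library ranged from 22 to 42, and from 33 to 42 with a library left out (against 33). Regions open in all adult and no infant library numbered 3 with an equal number of widest peaks, 2 without the pair of adult libraries that stood apart, and 1 to 2 with a library left out (against 1). Width calls without centring numbered 0 wider and 3 narrower in young adults, and 0 wider and 8 narrower in mature adults (against 1, 0, 4 and 4). With a library left out they ran from 0 to 1, 0 to 1, 1 to 6 and 2 to 6. Between the adult ages 3 regions were narrower without that pair, and 0 to 2 with 1 library left out (against 0). The causes were not tested beyond what each setting changes itself. The labels do not say that a replicate number pairs libraries, and deviations of same-numbered libraries correlated between -0.169 and 0.166 (9 pairs). With the replicate block 1, 1 and 0 members were called lower in the 3 comparisons, the same numbers as without it, and 3 regions were narrower in mature adults, against 4, as the region below Lmo2 had a limma adjusted p of 0.0565. Unknown depth and lists without heights limit all counts.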

Other observations

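Of the partner list, Gata4, Gfi1, Lmo1 and Runx1 (given above) were called lower in mature adult against infant libraries and in neither of the other comparisons. Gata4, a GATA factor of heart and mesenchyme, had 8, 8 and 6 peaks in infant, 5, 5 and 1 in young adult and 1, 1 and 2 in mature adult libraries (limma adjusted p = 0.0336 for mature adult against infant libraries, scaled). Gfi1, a repressor of blood stem cells and lymphoid and myeloid cells, had 4, 5 and 5 in infant, 4, 3 and 2 in young adult and 0, 1 and 1 in mature adult libraries (limma adjusted p = 0.0136). Lmo1, the relative of Lmo2, had 11, 12 and 8 in infant, 7, 7 and 5 in young adult and 4, 3 and 5 in mature adult libraries (limma adjusted p = 0.0275). Tal2, the relative of Tal1, had 1 peak in each adult and 2 in each infant library, and numbers that are equal within an age leave little spread. Etv2, the ETS factor that starts blood and endothelium in the mouse embryo, had no peak in any adult library and 2, 1 and 1 in the infant libraries, too few for the test. The E proteins that pair with Tal1 and Lyl1 were not called on both scales. Tcf4 had 84, 76 and 78 peaks in infant, 68, 70 and 68 in young adult and 61, 69 and 68 in mature adult libraries. Tcf12 had 26, 24 and 28, then 16, 20 and 18, then 13, 17 and 15, and Tcf3 had 4, 4 and 4, then 3, 3 and 2, then 2, 2 and 2. In mature adults against infants Tcf3 and Tcf12 were lower as listed (limma adjusted p = 0.00405 and 0.00474) and did not pass scaled (0.0503 and 0.106). Tcf4 was lower as listed, by 0.26 (limma adjusted p = 0.0152), and higher scaled, by 0.28 (limma adjusted p = 0.000151). Meis1, a homeobox factor of blood stem cells and endothelium, had 31, 33 and 29 in infant, 29, 33 and 36 in young adult and 29, 34 and 40 in mature adult libraries and was not called.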
